A study of Mus musculus with 8 samples.

Results

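Mitochondrial ribosomal protein genes were described in mouse hematopoietic stem cells exposed to eltrombopag or to its vehicle. The genes were all those of the array's annotation whose symbol starts with Mrpl or Mrps and a digit, pseudogenes left out, which gave 76 of 19505 named genes. Each of the 76 had 1 probe set. By the current structure of the mammalian mitochondrial ribosome, 50 belong to the large subunit and 25 to the small subunit. The remaining gene, Mrps36, keeps a ribosomal symbol although its protein is now described as a part of the oxoglutarate dehydrogenase complex. The genes Mrpl53 and Mrps6 had no named probe set and were not analysed here.

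Marrow of mice aged 6 to 10 weeks was the source, and the sort kept cells positive for CD150, c-Kit and Sca-1 and negative for lineage markers and CD48. Both groups were kept in medium with stem cell factor at 100 ng/ml and differed in a 16 h exposure to eltrombopag at 10 µg/ml or to sterile water. Eltrombopag is a small-molecule agonist of the thrombopoietin receptor that is given to raise platelet counts, and it is a chelator of iron. The question is which transcripts differ after the exposure. Each group held 4 arrays, titled NT for vehicle and EP for eltrombopag and numbered 1 to 4 as biological replicates. Whether each number stands for its own animals is not stated, nor is the strain, so the spread behind each p-value may be partly technical.

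Mitochondria keep their own ribosome, which makes the few proteins encoded by mitochondrial DNA, all of them subunits of the respiratory chain and ATP synthase. Its ribosomal RNAs come from mitochondrial DNA, while every ribosomal protein is encoded in the nucleus, made in the cytosol and imported. The small subunit binds the messenger and reads the codons, and the large subunit joins the amino acids and passes the chain to the inner membrane. Many of these proteins have a bacterial counterpart, and others exist only in mitochondrial ribosomes. Blood stem cells rely little on respiration at rest and raise mitochondrial activity when they start to divide or differentiate.

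The 8 arrays were alike, with Pearson correlations across genes of 0.987 to 0.993. Of 14 genes listed as stem cell markers 12 were measured. Their brightness, that of Cd34 included, does not by itself tell stem cells from progenitors. Kit (12.82 to 12.94 on the log2 scale over the 8 arrays), Cd34 (11.71 to 12.03) and Hlf (11.19 to 11.78) were among the bright ones. Meis1 (10.36 to 10.81) and Mecom (10.06 to 10.51) were bright too. Slamf1, which encodes the CD150 of the sort, lay at 6.19 to 7.75, Procr at 6.41 to 7.38 and Ctnnal1 at 6.02 to 6.95. These are near the level of Cd48, which the sort excludes, at 5.66 to 6.55, and levels of different probe sets cannot be ranked. The Y-linked gene Uty was high in the arrays numbered 3 (7.71 with vehicle and 6.98 with eltrombopag) and at 3.02 to 3.31 in the other 6. Number 3 thus held cells with a Y-linked transcript in both groups, so at least that number had a source of cells apart from the rest. Deviations from the group mean, over all probe sets, correlated positively between arrays numbered 3 and 4 of opposite groups (0.168 and 0.171). Results are therefore also given within numbers 1 and 2, within numbers 3 and 4, and without number 3.

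None of the mitochondrial ribosomal protein genes was told apart between the groups by limma, which called 0 of the 76 at an adjusted p under 0.05, beside 0% of all genes, and their adjusted p-values ran from 0.99978 to 0.99996. At an unadjusted p under 0.05 there were 2 members, Mrps25 and Mrpl1, both higher with eltrombopag. They are 2.63% of the members, beside 3.33% of all genes in either direction and 1.74% in the higher direction. With the replicate number as a block the count was also 2, beside 4.63% of all genes. The mean difference was above 0 in 61 members, which is 80.3% of them, beside 52.3% of all genes. The median log2 difference over the members was 0.064, a fold of 1.05, beside 0.0071 over all genes and 0.00092 over the genes brighter than the median gene. The quartiles of the members' differences were 0.0088 and 0.14, and the differences ran from -0.16 for Mrps18b to 0.31 for Mrpl27.

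**Figure D1:**
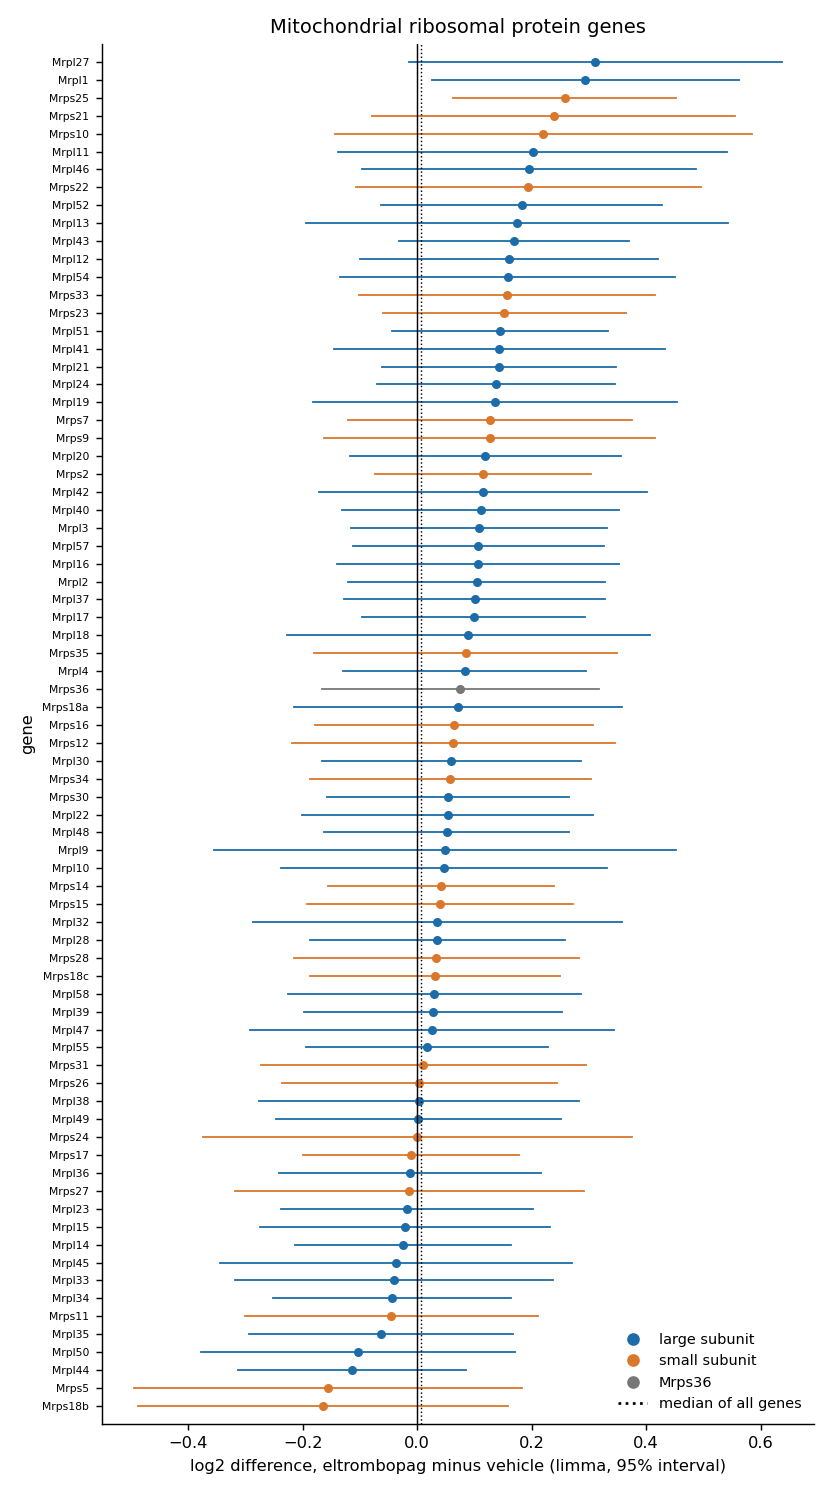
Log2 difference between eltrombopag and vehicle for each of the 76 genes, ordered by size, with the 95% interval of limma as a line. Blue marks large subunit genes, orange small subunit genes and grey Mrps36, and the dotted line is the median of all genes at 0.0071. The points lie to the right of 0 for 61 genes, and the intervals of Mrps25 and Mrpl1 alone stay above 0.

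The intervals bound how large a change these arrays leave possible. The median half-width of the 95% interval was 0.25 for the members and 0.28 for all genes. A 2-fold change in either direction lay outside the interval of all 76 members. A 1.5-fold change lay outside it for 75 members, which is 98.7%, beside 88.0% of all genes. The exception was Mrpl27, whose interval reached 0.64. The median standard deviation within groups was 0.15 for the members, 0.18 for all genes and 0.17 for the genes brighter than the median gene. For those brighter genes a 1.5-fold change lay outside the interval of 89.4%. All members but Mrpl43 were brighter than the median gene of the arrays. Brightness differs between probe sets for the same amount of RNA, so levels are not compared between genes. In bulk RNA, fewer cells with a transcript and less transcript per cell cannot be told apart.

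Among the members that were higher with eltrombopag, Mrps25 had the smallest unadjusted p. It encodes a small subunit protein found only in mitochondrial ribosomes. With vehicle, its log2 values in arrays 1 to 4 were 8.35, 8.38, 8.31 and 8.46. With eltrombopag, they were 8.70, 8.69, 8.57 and 8.59. Every eltrombopag array lay above every vehicle array, by a small margin between vehicle array 4 and eltrombopag array 3. The log2 difference was 0.26 (SE 0.088), a fold of 1.20, with an unadjusted p of 0.0145 and an adjusted p of 0.99978 in limma.

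Mrpl1 encodes the protein of the mobile stalk beside the exit site for transfer RNA. Its vehicle values were 7.61, 7.38, 7.51 and 7.41 in arrays 1 to 4, and its eltrombopag values were 7.80, 8.05, 7.54 and 7.69. The groups overlapped, since eltrombopag array 3 lay below vehicle array 1, and eltrombopag array 2 was the highest. The difference was 0.29 (SE 0.12), with an unadjusted p of 0.0349 and an adjusted p of 0.99978 in limma.

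Mrpl27 encodes a protein whose bacterial counterpart reaches into the peptidyl transferase centre. It had the largest difference of the 76 genes. Its vehicle values of 9.08, 9.32, 9.42 and 9.78 spanned a wide range, and its eltrombopag values were 9.83, 9.66, 9.52 and 9.83. The groups overlapped through vehicle array 4, which nearly reached the highest eltrombopag arrays. The difference of 0.31 (SE 0.15) came mainly from numbers 1 and 2, with 0.75 and 0.34, against 0.10 and 0.054 in numbers 3 and 4, and was 0.20 without vehicle array 1. RefSeq lists pseudogenes named after Mrpl23, Mrpl27, Mrpl48 and Mrps36, and whether the probes also bind those copies was not examined.

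Mrpl43 and Mrpl51 of the large subunit and Mrps23 of the small subunit, all without a bacterial counterpart, had groups that did not overlap. Mrpl43 was the dimmest member, at 5.72, 5.76, 5.90 and 5.83 with vehicle and 5.98, 5.93, 5.91 and 6.08 with eltrombopag. For this gene eltrombopag array 3 lay barely above vehicle array 3. Mrpl51 had 10.69, 10.57, 10.59 and 10.67 with vehicle and 10.79, 10.70, 10.81 and 10.79 with eltrombopag, a narrow separation with little spread in either group. Mrps23 had 8.30, 8.47, 8.51 and 8.54 with vehicle and 8.55, 8.59, 8.73 and 8.56 with eltrombopag. Here vehicle array 1 was the lowest, and vehicle array 4 nearly touched eltrombopag arrays 1 and 4. The differences were 0.17 (SE 0.091) for Mrpl43, 0.14 (SE 0.086) for Mrpl51 and 0.15 (SE 0.095) for Mrps23, each with an adjusted p of 0.99978 in limma. That of Mrps23 was 0.10 without vehicle array 1.

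Mrps21 and Mrpl52 complete the 8 members with the smallest p among those that were higher. Mrps21, the counterpart of a small bacterial ribosomal protein, had 8.59, 8.15, 8.49 and 8.83 with vehicle and 8.91, 8.66, 8.62 and 8.82 with eltrombopag. The groups overlapped through vehicle array 4, and vehicle array 2 was the lowest. Mrpl52, a large subunit protein of mitochondria alone, had 8.76, 8.50, 8.51 and 8.57 with vehicle and 8.63, 8.63, 8.87 and 8.94 with eltrombopag. It was lower with eltrombopag in number 1 and higher in the other numbers. The differences were 0.24 (SE 0.14) for Mrps21, or 0.12 without vehicle array 2, and 0.18 (SE 0.11) for Mrpl52.

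**Figure D2:**
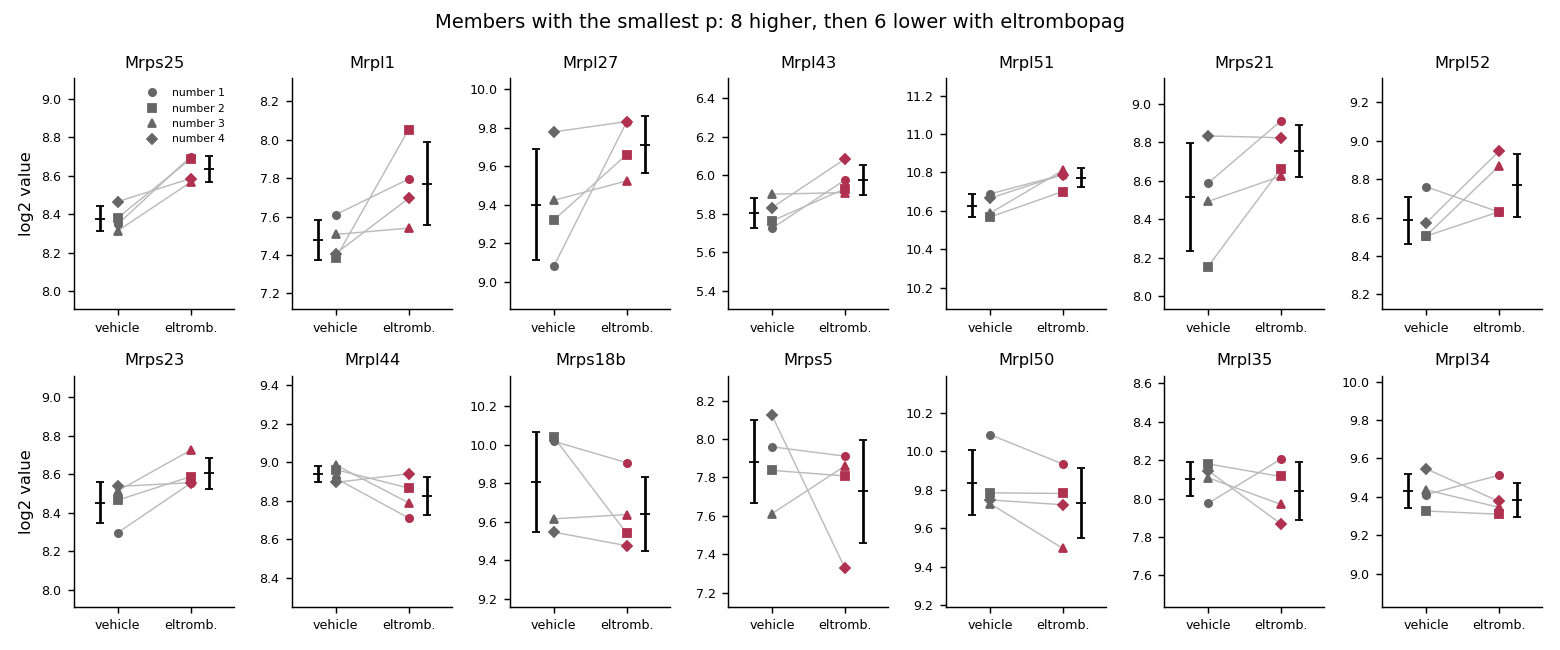
Log2 values in each array for the 8 members with the smallest p among those higher and the 6 among those lower with eltrombopag, grey for vehicle and red for eltrombopag. Symbols give the replicate number, lines join arrays of the same number, and bars beside the points are the mean and SD of 4 arrays. Each panel spans the same range on the log2 scale, and separate groups are seen for Mrps25, Mrpl43, Mrpl51 and Mrps23.

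In 5 members the groups were separate, with all eltrombopag arrays above all vehicle arrays, which is 6.58% of them, beside 1.12% of all genes. The reverse held in 0 members, beside 1% of all genes. The 5 were Mrps25, Mrpl43, Mrpl51, Mrps23 and Mrps2, the last chosen after its values were seen. Mrps2, the counterpart of a bacterial protein of the small subunit's back, had 9.71, 9.78, 9.76 and 9.67 with vehicle and 9.80, 9.85, 9.92 and 9.81 with eltrombopag. Its groups were thus separate by a margin narrower than the spread within either, with a difference of 0.12 (SE 0.085). The count of 5 became 9 without vehicle array 1, 8 without vehicle array 4 and 11 without both arrays numbered 3, where fewer arrays make separation more common. Beside these counts stood 3.04%, 2.52% and 4.03% of all genes.

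The promoters of the 4 members with the smallest p among those higher are shown, chosen by that p alone. The windows are those of RefSeq on GRCm38.p6, from 90 bases before to 30 bases after the transcript start. They lie at chr6:92183994-92184113 on the minus strand for Mrps25, chr5:96210025-96210144 on the plus strand for Mrpl1, chr11:94653701-94653820 on the plus strand for Mrpl27 and chr19:45006413-45006532 on the minus strand for Mrpl43. Capitals mark the core of ETS-family sites, CCGGAAG read on either strand.
Mrps25: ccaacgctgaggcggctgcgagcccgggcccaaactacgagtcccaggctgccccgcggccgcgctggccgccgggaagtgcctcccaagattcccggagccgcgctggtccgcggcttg
Mrpl1: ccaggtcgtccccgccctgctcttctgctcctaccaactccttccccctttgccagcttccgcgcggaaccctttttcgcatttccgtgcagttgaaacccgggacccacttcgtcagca
Mrpl27: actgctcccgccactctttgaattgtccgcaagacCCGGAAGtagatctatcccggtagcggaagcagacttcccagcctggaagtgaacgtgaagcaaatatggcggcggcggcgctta
Mrpl43: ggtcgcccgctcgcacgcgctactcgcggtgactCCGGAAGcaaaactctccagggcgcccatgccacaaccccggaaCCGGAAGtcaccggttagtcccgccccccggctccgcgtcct
The core began 55 bases before the start in Mrpl27, and 56 and 12 bases before it in Mrpl43. The windows of Mrps25 and Mrpl1 did not hold these letters, in the part shown or in the full 300 bases of the table.

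RefSeq windows of 300 bases (250 before to 50 after the start) were matched for 67 of the 76 members, as 73 windows. ETS-family factors such as GABPA are known regulators of nuclear genes for mitochondrial proteins. The ETS core CCGGAAG was found on either strand in 34.2% of the members' windows, beside 8.86% of all windows and 11.8% of those of measured genes. GCGCATG, a core of the site of NRF1, another such regulator, was found on either strand in 11.0% of the members' windows, beside 3.91% of all windows and 4.96% of those of measured genes. AAGATGG, a core of the site of YY1, was found in 17.8%, beside 6.34% and 6.32%. The TATA letters TATAAA were found in 6.85%, beside 13.6% and 12.3%. None of these motifs contains another. Base composition was not matched, and a match of letters is a description, not a bound site. The 25 members with the ETS core had a median difference of 0.089, with 21 higher, and the 42 without it a median of 0.048, with 32 higher. For the NRF1 and YY1 cores it was the members with them that had the lower medians, 0.041 against 0.075 and 0.035 against 0.070. None of these differences was tested.

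Both subunits had more genes higher than lower. Of the 50 large subunit genes 40 were higher and 10 lower, and their median difference was 0.077. Of the 25 small subunit genes 20 were higher and 5 lower, and theirs was 0.058. That median was 0.025 without eltrombopag array 1, 0.026 without eltrombopag array 4, 0.023 within numbers 3 and 4, 0.089 without vehicle array 4 and 0.090 without eltrombopag array 3. The difference between the subunits was not tested. Members with a bacterial counterpart were higher in 23 of 30 cases in the large subunit (median 0.071) and 12 of 15 in the small (0.042). Proteins found only in mitochondrial ribosomes were higher in 17 of 20 cases in the large subunit (0.086) and 8 of 10 in the small (0.071). Mrps18a and Mrps18b, relatives of a bacterial protein at other places, were counted among the latter. Each class thus had more genes higher than lower, and 0 genes passed in any of them.

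The stalk that recruits the translation factors is built from Mrpl10 and Mrpl12 on a base formed by Mrpl11. Mrpl12, which has also been described as a partner of the mitochondrial RNA polymerase, had 8.28, 8.47, 8.30 and 8.14 with vehicle and 8.71, 8.42, 8.43 and 8.28 with eltrombopag. Eltrombopag array 1 stood highest, the groups overlapped, and the difference was 0.16 (SE 0.12), or 0.078 without eltrombopag array 1. Mrpl10 had 7.18, 7.53, 7.22 and 7.31 with vehicle and 7.34, 7.41, 7.59 and 7.08 with eltrombopag, with a difference of 0.047 (SE 0.13) whose sign changed without eltrombopag array 3 (-0.032). Mrpl11 had vehicle values of 8.81, 9.11, 9.35 and 9.59, and eltrombopag values of 9.43, 9.31, 9.41 and 9.52. Its eltrombopag values sat inside the upper part of the vehicle range. The difference of Mrpl11 was 0.20 (SE 0.15), with 0.62 in number 1 and -0.077 in number 4, and was 0.067 without vehicle array 1.

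Mrps12, a protein of the decoding centre, followed the replicate numbers closely. Its vehicle values were 10.05, 9.79, 9.80 and 10.03, and its eltrombopag values were 10.18, 9.75, 9.83 and 10.15. Arrays 1 and 4 were high in both groups and arrays 2 and 3 low. Its difference was 0.063 (SE 0.13, or 0.088 with the replicate number as a block). Within numbers 1 to 4 it was 0.13, -0.034, 0.036 and 0.12. Without eltrombopag array 1, which leaves vehicle array 1 without its partner, the difference was -0.0044.

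The paralogues of 1 bacterial small subunit protein, Mrps18a, Mrps18b and Mrps18c, sit at different places of the mitochondrial ribosome, with the Mrps18a protein in the large subunit. They did not share a direction. Mrps18b was the member with the lowest difference. Its vehicle values were 10.02, 10.04, 9.61 and 9.55, and its eltrombopag values were 9.91, 9.54, 9.64 and 9.47. Arrays 1 and 2 with vehicle and array 1 with eltrombopag were high, and the difference was -0.16 (SE 0.15), with -0.25 to -0.086 over the arrays left out. Mrps18a had 9.11, 9.40, 9.47 and 9.33 with vehicle and 9.49, 9.59, 9.09 and 9.42 with eltrombopag, a difference of 0.072 (SE 0.13). It was higher with eltrombopag in number 1, with 0.38, and lower in number 3, with -0.38. Mrps18c had 9.54, 9.54, 9.62 and 9.50 with vehicle and 9.60, 9.48, 9.47 and 9.78 with eltrombopag, a difference of 0.031 (SE 0.099) that was -0.034 without eltrombopag array 4. Mrps30, also a large subunit protein in spite of its symbol, differed by 0.054 (SE 0.095) with values between 7.62 and 7.92. Mrps36 differed by 0.075 (SE 0.11) with values between 8.50 and 8.85.

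Of the 15 members that were lower with eltrombopag, 6 were taken for the smallest p, and none of these 6 had separate groups. Mrpl44, which carries the fold of a ribonuclease III, had 8.92, 8.96, 8.99 and 8.90 with vehicle and 8.71, 8.87, 8.79 and 8.94 with eltrombopag. It was lower with eltrombopag in numbers 1 to 3 and not in number 4, with a difference of -0.11 (SE 0.090), or -0.075 without eltrombopag array 1. Mrps5, at the channel where the messenger enters, had 7.96, 7.84, 7.61 and 8.12 with vehicle and 7.91, 7.81, 7.86 and 7.33 with eltrombopag. Its difference of -0.16 (SE 0.15) rested on eltrombopag array 4, and without that array it was -0.024. Mrpl50 had 10.09, 9.78, 9.73 and 9.75 with vehicle and 9.93, 9.78, 9.50 and 9.72 with eltrombopag, a difference of -0.10 (SE 0.12). It was the single member lower in all 4 numbers, but its difference was -0.020 without vehicle array 1, -0.024 without eltrombopag array 3 and -0.17 without eltrombopag array 1. Mrpl35 and Mrpl34, counterparts of small bacterial large subunit proteins, differed by -0.063 (SE 0.10) and -0.044 (SE 0.094). Both differences changed sign within numbers 1 and 2 (0.082 and 0.042).

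The members moved partly together from array to array. Each value was set against the mean of its gene over the 8 arrays. The median of these deviations over the 76 genes was -0.0040, -0.072, -0.058 and -0.031 in vehicle arrays 1 to 4. In eltrombopag arrays 1 to 4 it was 0.12, -0.016, -0.028 and 0.061. Eltrombopag array 1 stood highest and eltrombopag array 4 next, while eltrombopag arrays 2 and 3 lay below vehicle array 1, so the groups overlapped. In eltrombopag array 1, 65 of the 76 members were above their own mean, and in eltrombopag array 4, 57 were. In vehicle arrays 1 to 4 the numbers were 35, 23, 27 and 32, and in eltrombopag arrays 2 and 3 they were 33 and 33. Over all genes the medians of the deviations stayed between -0.014 and 0.019.

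**Figure D3:**
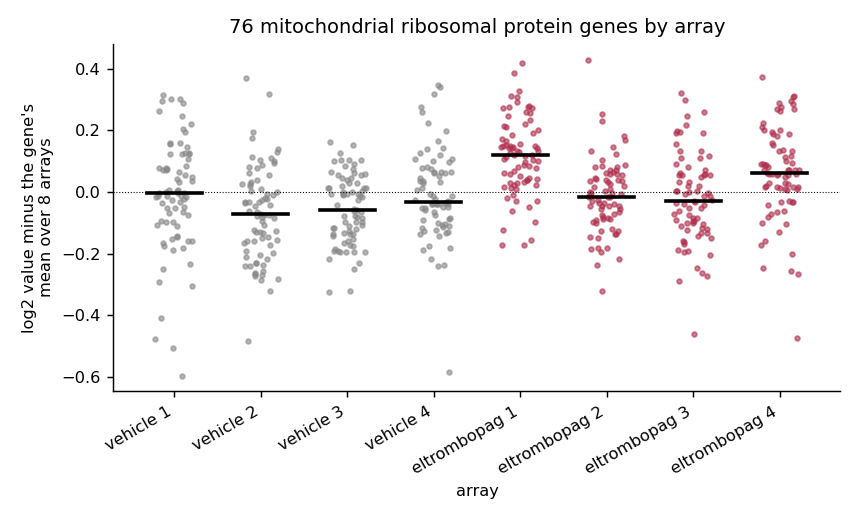
Deviation of each of the 76 genes from its mean over 8 arrays, on the log2 scale, for each array; grey is vehicle, red is eltrombopag and the black bar is the median. The median is highest in eltrombopag array 1 (0.12) and lowest in vehicle array 2 (-0.072), and the medians of the groups overlap.

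Within replicate numbers, the eltrombopag array was compared with the vehicle array of the same number. The median log2 difference over the members was 0.095, 0.057, 0.035 and 0.096 in numbers 1 to 4. Over all genes it was 0.0042, 0.0062, 0.017 and -0.0022. The number of members higher with eltrombopag was 52, 45, 47 and 50 of 76. Large subunit genes had medians of 0.071, 0.093, 0.039 and 0.099, all above 0. Small subunit genes had 0.16, -0.0060, 0.035 and 0.019, so number 2 did not share the sign. In all 4 numbers 11 members were higher, 14.5% of them, beside 6.73% of all genes, and 1 member was lower, beside 5.87%. Besides the 7 of these 11 already named, they were Mrpl19, Mrpl21, Mrpl24 and Mrpl42, chosen after their values were seen, with differences of 0.14, 0.14, 0.14 and 0.11.

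**Figure D4:**
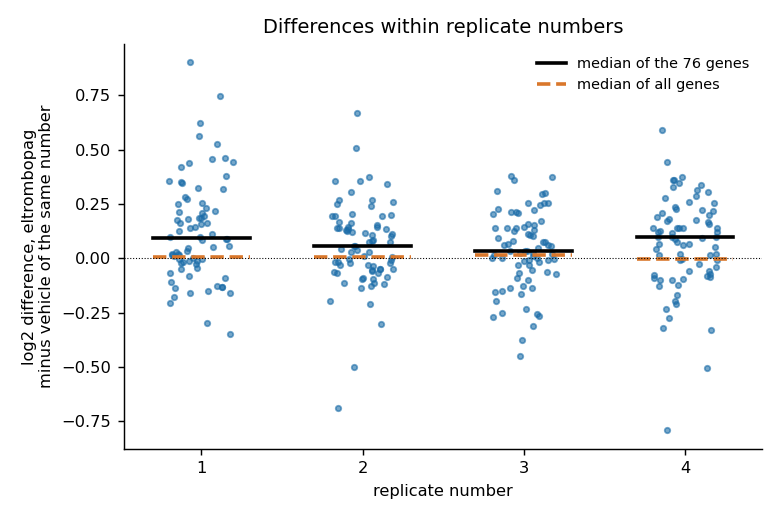
Log2 difference between the eltrombopag and the vehicle array of the same replicate number, 1 point for each of the 76 genes. The black bar is their median, at 0.095, 0.057, 0.035 and 0.096, and the dashed orange bar is the median of all genes. The medians of the 76 genes lie above those of all genes in each number, and single genes spread widely on both sides of 0.

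The count of higher members moved with single arrays. Without eltrombopag array 1, 51 of 76 members were higher, with a median of 0.044, beside 50.7% of all genes higher. Without eltrombopag array 2 the median was 0.099, with 60 higher, and without eltrombopag array 3 it was also 0.099, with 62 higher. Within numbers 1 and 2 alone 57 members were higher (median 0.075), and within numbers 3 and 4 alone 52 were (0.074). Without both arrays numbered 3 there were 59 (0.088). The difference between the arrays numbered 1 and 2 and those numbered 3 and 4, over both groups, was not shared by the members: 39 of 76 were higher in numbers 3 and 4, with a median of 0.0042. The members with the largest such shifts were Mrps18b, with -0.31 for numbers 3 and 4 against 1 and 2, Mrpl11 with 0.30, Mrpl13 with -0.25 and Mrpl18 with 0.23. Mrpl13, a core large subunit protein, owed it in part to vehicle array 4, at 7.67 against 8.18, 8.39 and 8.41 in vehicle arrays 1 to 3. Its eltrombopag values were 8.54, 8.39, 8.15 and 8.26, and the difference of 0.17 (SE 0.17) between the groups was 0.0087 without vehicle array 4. Mrpl18, which in bacteria binds the small ribosomal RNA of the large subunit, was high in both arrays numbered 4, at 8.24 and 8.36, against 7.80 to 8.03 in the other arrays, with a difference of 0.089 (SE 0.14) between the groups.

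Other genes of mitochondrial translation were read from lists. Of 4 measured ribosome subunits with other names, 3 were higher (median log2 difference 0.063). Dap3, a GTP-binding small subunit protein, differed by 0.095 (SE 0.10) and Chchd1 by 0.10 (SE 0.11). Of 16 translation factors 7 were higher and 9 lower, with a median of -0.025, and 14 of the 16 were higher in number 1 but 3 in number 4. Guf1, a back-translocase, had the smallest p of these factors at a difference of 0.22 (SE 0.11), and the ribosome recycling factor Mrrf differed by -0.16 (SE 0.12). Of 25 genes of ribosome assembly and ribosomal RNA modification 14 were higher, with a median of 0.026. Among these Mettl17, a small subunit assembly factor, had 8.07, 8.20, 8.12 and 8.16 with vehicle and 8.32, 8.30, 8.43 and 8.63 with eltrombopag. Its groups did not overlap, and the difference was 0.28 (SE 0.10), with an adjusted p of 0.99978 in limma. Malsu1, a large subunit assembly factor, differed by 0.19 (SE 0.12). Of 13 genes of mitochondrial DNA transcription and transcript stability 6 were higher, with a median of -0.012. Lrpprc, which stabilises mitochondrial messengers, had 7.18, 7.55, 7.64 and 7.50 with vehicle and 7.05, 7.50, 7.14 and 6.77 with eltrombopag. It was lower in all 4 numbers with overlapping groups, by a difference of -0.35 (SE 0.16). Trmt10c, a part of mitochondrial RNase P, differed by 0.21 (SE 0.11). In each of the lists 0 genes passed, and the 2 genes named per list are those with the smallest p. The medians of the translation factor, assembly and transcription lists changed sign when some arrays were left out, so no direction is given for them.

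**Figure D5:**
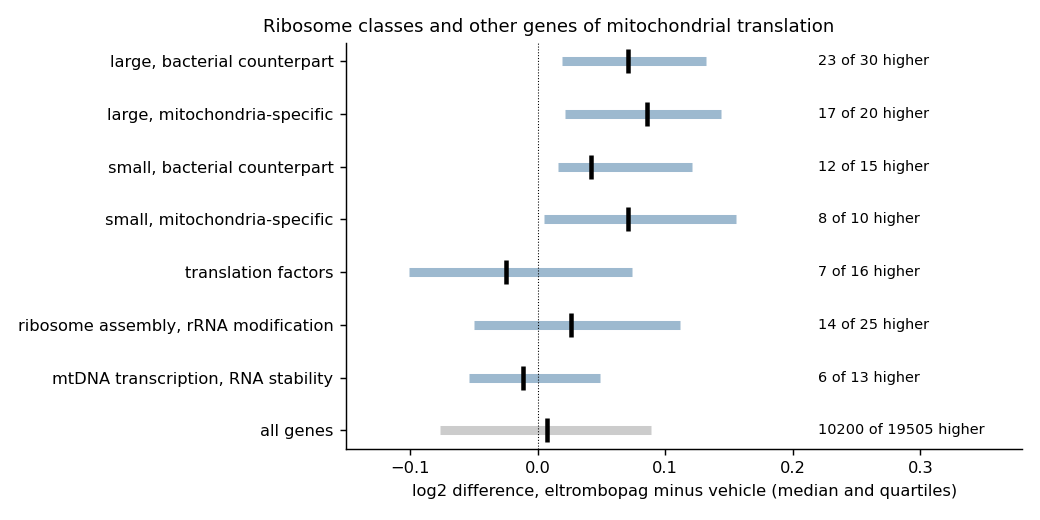
Median log2 difference (black tick) and quartiles (bar) for the classes of mitochondrial ribosomal protein genes, for 3 other lists of mitochondrial translation genes and for all genes, with the number of genes higher beside each. The medians of the ribosome classes lie between 0.042 and 0.086, those of the other 3 lists between -0.025 and 0.026 and that of all genes at 0.0071.

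Markers of other cell types were set beside these differences. The mean log2 value of 10 erythroid genes was 6.70 to 6.91 with vehicle and 6.63 to 7.17 with eltrombopag, with 7 of 10 higher and a difference of 0.25 in number 3 against -0.071 to 0.057 in the others. For 10 stromal and endothelial genes it was 6.06 to 6.24 with vehicle and 5.88 to 6.11 with eltrombopag, with 1 of 10 higher. Within that list Cdh5 (4.01 to 4.80) and Lepr (3.40 to 3.75) were dim in every array, while Pecam1 lay at 8.80 to 9.38, Col1a1 at 7.47 to 7.86 and Cxcl12 at 7.02 to 7.41. Tagln, a smooth muscle gene of the list, differed by -0.55, with an unadjusted p of 0.00175 and an adjusted p of 0.99978 in limma, a larger difference than that of any member. For 9 megakaryocyte genes it was 7.31 to 7.78 and 7.44 to 7.87, with 6 of 9 higher. Mast cell and basophil genes were higher in 6 of 7 cases, at 4.95 to 5.12 with vehicle and 4.95 to 5.20 with eltrombopag. B cell genes were higher in 5 of 7, at 5.72 to 5.89 and 5.81 to 6.04, with a difference of 0.32 in number 4. Neutrophil and monocyte genes were higher in 5 of 12 (6.51 to 6.93 and 6.57 to 6.93) and T and NK cell genes in 4 of 7 (5.08 to 5.19 and 4.98 to 5.27). Genes listed for the sort's negative gate were higher in 4 of 7 (6.25 to 6.47 and 6.11 to 6.47). Ptprc, 1 of these 4, encodes CD45 and lay at 10.05 to 10.54 over the arrays. It raises the mean of that list, which therefore does not measure the excluded cells alone. The genes listed as stem cell markers lay at 8.89 to 9.25 and 8.82 to 9.23, with 6 of 12 higher. The part of these cell types in the members' differences was not tested.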

How the data were processed

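Per the labels' protocols, around 10 ng of RNA went into amplification and biotin labelling. The authors deposited log2 values, 1 for each probe set on each array. RMA, oligo and limma are named in the submitters' processing notes, without versions; the genome build is unstated in the sources read here. RMA sets arrays to a near-common distribution, so differences in total RNA are removed, and signal over background is not part of the values. The table held 22206 probe sets. The platform annotation gave 19572 of them 1 symbol and left 2634 unnamed here. For a gene with several probe sets the highest mean over all 8 arrays was kept, and no filter was set. No pair of arrays shared a value (0 equal values, tolerance 0).

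limma 3.58.1 in R 4.3.3 (lmFit, eBayes, two-sided, group as the only term) was fitted on all 19505 genes, with Benjamini-Hochberg adjustment over all of them and calls at 0.05. The code was first run on simulated data without shared replicate numbers, with planted differences larger than that of any member. That run does not show how often changes of the size seen here would be called. Intervals are 95% intervals. The number of arrays limits the precision. Same-number arrays of the groups correlated in their deviations from the group mean at 0.142 to 0.294, different numbers at -0.208 to 0.171. From these data the numbers were taken as pairs for the differences within numbers. The main fit did not use the pairs, so its SEs, p-values and intervals are unpaired. The fit with the number as a block was an alternative, as were 18 others. Its SE was smaller for some members (Mrps12, 0.088 against 0.13) and larger for others (Mrps5, 0.17 against 0.15). The members and lists were chosen with earlier results of these data known. Named members are the 8 and 6 with the smallest p among those higher and lower, the 4 with the largest shift between numbers 1 and 2 and numbers 3 and 4, and Mrpl12, Mrpl10, Mrps12, Mrps18a, Mrps18b, Mrps18c, Mrps30 and Mrps36. Of each other translation list the 2 genes with the smallest p are named. The NRF1 and YY1 cores were shortened to 7 letters after longer forms had been searched. Mrps2, Mrpl19, Mrpl21, Mrpl24 and Mrpl42 were added after their values were seen.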

Additional observations from a re-analysis of the deposited data

Results flagged for a closer look

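Among 70 groups of 4 arrays behind the reported values, 4 had a single array far from the other 3. For groups not picked by their values, chance would give about 3.5 (1 in 20). For Mrpl18 vehicle array 4 stood apart at 8.24 while the remaining vehicle values were 7.82 to 7.86, a gap of 0.911 of the whole range. For Mrpl50 vehicle array 1 stood apart at 10.09 from values of 9.73 to 9.78, a gap of 0.844. Without it the difference of Mrpl50 was -0.020 in place of -0.10. The Y-linked Uty stood apart in both arrays numbered 3. It was 7.71 with vehicle, where the rest were 3.20 to 3.31 (gap 0.977), and 6.98 with eltrombopag, where the rest were 3.02 to 3.23 (gap 0.947). Uty was picked for its values, and many of the other genes were named by p or by shift. The count of 4 therefore cannot be set against the chance figure.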

How the results depend on the processing

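The count of called members was 0 in each of 19 alternatives, and the median over the members stayed above 0 in all of them. With the replicate block 0 members passed and the smallest adjusted p was 0.984; the block changed no call. Leaving out 1 array moved the members' median between 0.044 and 0.099, the large subunit median between 0.058 and 0.11, the small subunit median between 0.025 and 0.090 and the count of higher members between 51 and 62. It moved the count of members entirely above vehicle between 5 and 9 and entirely below between 0 and 1; without both arrays numbered 3 the first was 11, with fewer arrays to overlap. With equal medians 57 members were higher. Of 25 named members 15 kept their sign in every alternative that held them; those with groups apart could not lose it by leaving out arrays. Signs changed within numbers 1 and 2 for Mrpl34 (0.042), Mrpl35 (0.082) and Mrpl52 (-0.0024), within numbers 3 and 4 for Mrpl11 (-0.0075), Mrps18a (-0.14) and Mrps30 (-0.0032), and without both arrays numbered 3 for Mrpl10 (-0.063). Leaving out 1 array changed signs for Mrpl10 (-0.032 to 0.14), Mrpl18 (-0.021 to 0.19), Mrps12 (-0.0044 to 0.14) and Mrps18c (-0.034 to 0.069). The list medians ran over the arrays left out from -0.070 to 0.023 for translation factors, -0.024 to 0.078 for assembly and -0.026 to 0.016 for transcription. Translation factors had 0.034 within numbers 1 and 2 and 0.0070 without number 3; transcription had 0.023 within numbers 1 and 2, 0.023 within numbers 3 and 4 and 0.00046 without number 3. The cause was not tested.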
